A study of Rattus norvegicus with 18 samples.

Results

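Serum-free vesicles of rat pXEN cells were compared with the normal cells of the same kind, across all genes. The comparison used the 3 libraries whose titles name the serum-free vesicle condition and the 3 whose titles name normal pXEN cells, 6 of the 18 libraries of the series. All cells were of the WKY rat strain, came from blastocysts and were labelled female. Normal cells, at passages 37, 40 and 51, were grown by a published routine protocol whose components the labels do not list. The serum-free vesicles were at passages 32, 35 and 42. For vesicles the labels give N2B27 medium with 3 µM of the GSK3 inhibitor CHIR99021 and 10 ng/ml murine LIF, and state that feeder cells (MEF), the MEK inhibitor PD0325901 and the ROCK inhibitor Y-27632 of the cited recipe were left out. Medium, added agents and form of growth went together between the groups, and their parts cannot be told apart. Independent preparation of the samples is stated, a separate derivation of each is not, so p-values measure the spread between these samples, which may be technical. Vesicles of the same cells grown with serum (3 libraries, passages 32, 35 and 49) and CHIR99021-vacuolated cells collected by a sort (3 libraries, 0.5 µM, passages 35, 38 and 49) served to show where serum-free vesicles differed from the groups most like them. Whether the medium and CHIR99021 dose given for vesicles also hold for the serum vesicles is not clear from the labels.

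Extraembryonic endoderm is the tissue that lines the blastocyst cavity and later forms the visceral endoderm, a polarised absorptive epithelium, and the parietal endoderm, single cells that lay down a thick basement membrane. Rat precursors of this lineage are known for carrying the endoderm factors Gata4, Gata6 and Sox17 together with the pluripotency factor Pou5f1. CHIR99021 blocks GSK3, the kinase that marks beta-catenin for destruction, so that beta-catenin can act with TCF factors on Wnt target genes. LIF acts through its receptor on STAT3, and FGF receptors act through MEK on ERK.

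Libraries of normal cells held 4080629 to 5888544 strand-specific counts and those of serum-free vesicles 5757048 to 11079824. A pair of genes named after the rat mitochondrial genome record took 37.6 to 43.6% of the counts in normal cells and 53.6 to 61.1% in serum-free vesicles. Of the counts outside that pair, genes with an Mt- symbol took 3.13 to 3.38% in normal cells and 7.11 to 9.43% in serum-free vesicles. This rise went with the comparison between these groups. The share was also 7.91 to 9.31% in serum vesicles and 6.76 to 8.91% in sorted vacuolated cells. Without the Mt- genes 6618 genes were called, in place of the 6633 below. Levels are CPM, the counts of a gene scaled to library size after TMM scaling, as mean ± SD over 3 libraries, in the order of replicates 1, 2 and 3 where single libraries are given. Differences were tested with edgeR's quasi-likelihood test and called at a Benjamini-Hochberg adjusted p under 0.05 over 11503 genes. In such bulk samples, fewer cells of a type and less RNA per cell cannot be told apart.

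The second replicate of the serum-free vesicles stood apart from its group in 1 set of genes. In that library, 32 genes had at least 50 counts and at least 10 times the CPM of each of the other 2 serum-free libraries, a rule chosen after the values were seen. They include the mucin Muc13, the lectin Lgals4, the brush-border enzymes Alpi, Lct, Mgam and Mep1a, the fatty acid carrier Fabp2, and the secreted proteins Afp, Apoa1, Apoa4, Fga and Fgb. The 32 genes summed to 872 CPM there, against 29.6 and 12.7 CPM in replicates 1 and 3 and 3.63 to 8.25 CPM in normal cells. Lypd8, a small protein of the Ly6 family, made up 307 CPM of that sum. Replicate 1 of the serum vesicles came next, at 402 CPM, with 19.6 and 65.5 CPM in the other serum vesicle libraries. There Lypd8 (241 CPM), the complement protein C3 (50.2 CPM) and Lgals4 (38.3 CPM) made up most of the sum, while Afp was at 0.761 CPM, Apoa1 at 1.22 CPM and Fabp2 at 0. Afp, a secreted carrier protein of visceral endoderm and fetal liver, had 5, 252 and 2 counts in the serum-free libraries and 0 in each normal library. Apoa1, an apolipoprotein of the same cells, had 2, 346 and 0 counts. No gene met the same rule in the other serum-free libraries or in any normal library. Only 10 of the 32 genes had enough counts to be tested, of which 7 were called against normal cells, and results that rest on this library are given with and without it.

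**Figure D1:**
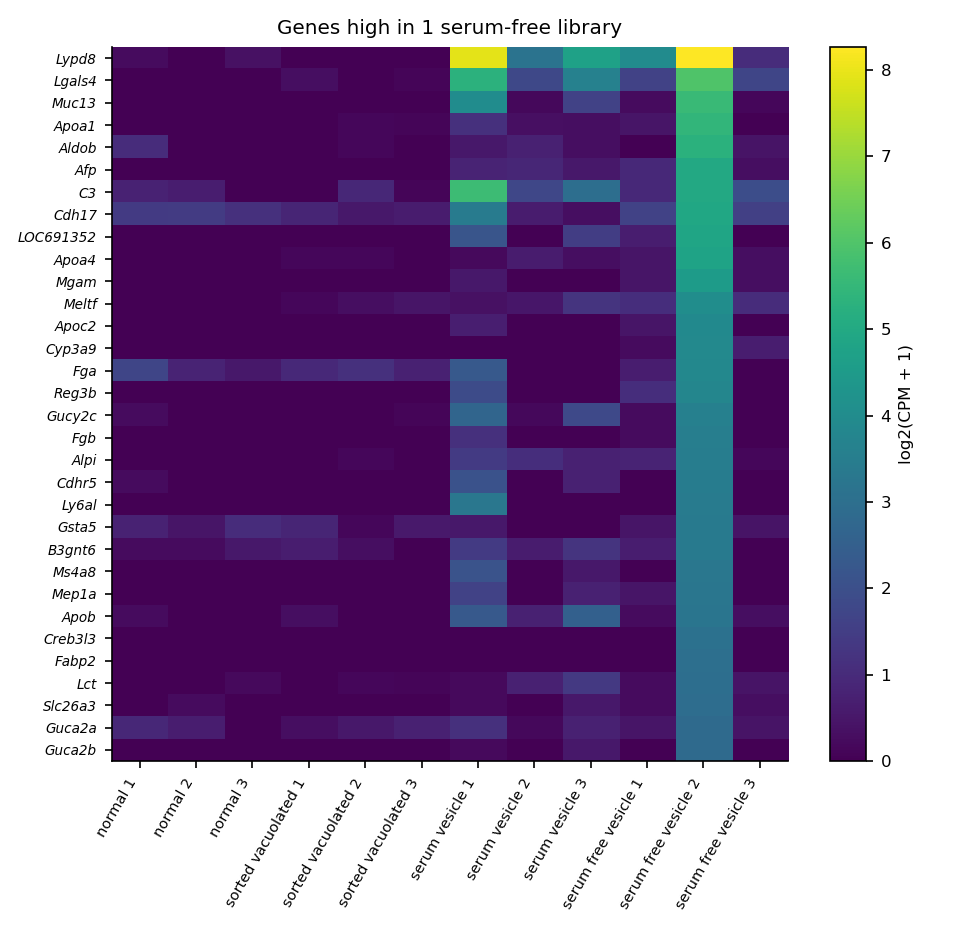
Expression of the 32 genes that were high in serum-free replicate 2, one row per gene and one column per library, as log2(CPM + 1) on a colour scale. The column of serum-free vesicle 2 is above the other serum-free columns in every row, from Lypd8 at 307 CPM to Guca2b at 6.31 CPM. Serum vesicle 1 is raised in part of the rows, and the normal and sorted columns stay dark.

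Serum-free vesicles differed from normal cells in most genes tested. Of 11503 genes, 3470 were higher in serum-free vesicles (30.2%) and 3163 were lower (27.5%), together 57.7%. Called differences over 2-fold were found for 3619 genes (31.5% of all tested), 2141 higher (18.6%) and 1478 lower (12.8%). The median log2 fold change over all genes tested was 0.03. Leaving out 1 library at a time gave 6074 to 6387 called genes. Counts of list members against normal cells are to be read beside the shares of 30.2% higher and 27.5% lower.

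**Figure D2:**
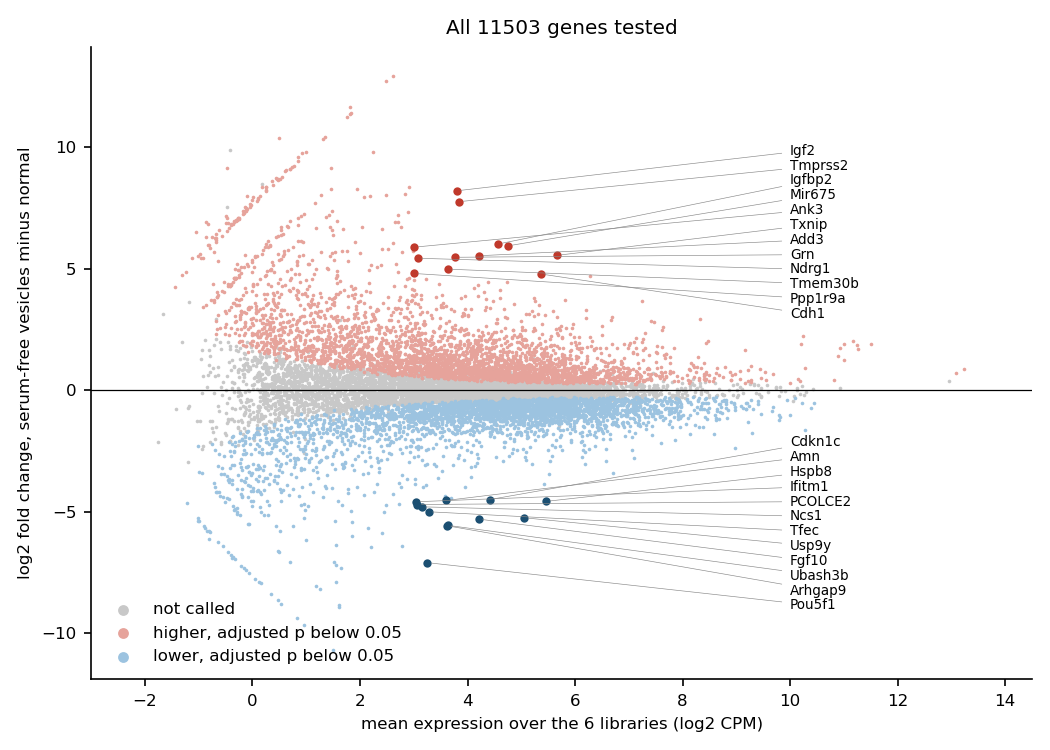
Log2 fold change of serum-free vesicles over normal cells against mean expression over the 6 libraries (log2 CPM), one point per tested gene, coloured by call at an adjusted p of 0.05. The 12 highest and 12 lowest genes of the naming rule are labelled, from Igf2 at 8.21 to Pou5f1 at -7.09; the diagonal streaks at the left are genes with few counts in 1 group.

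Among genes that reached 3 in mean log2 CPM over the 6 libraries, the largest rise was that of Igf2, an imprinted growth factor of the embryo and its membranes. That minimum leaves out some genes that were silent in normal cells and high in serum-free vesicles, such as Slc9a3, which is described with the transporters. Igf2 had 0.538, 1.15 and 0.605 CPM in normal cells and 215, 379.5 and 87.1 CPM in serum-free vesicles, a 297-fold difference (log2 8.21, SE 0.76, adjusted p = 9.94e-07). Its carrier Igfbp2 rose 65.1-fold, from 2.97 ± 1.32 to 190.3 ± 59.3 CPM. The groups were far apart in both genes, and Igf2 varied widely among the serum-free libraries; without replicate 2 the log2 fold change of Igf2 was 7.62. Tmprss2, a membrane serine protease of epithelia, was nearly equal across them, at 191, 194 and 189 CPM against 0.839 ± 0.342 CPM in normal cells (218-fold, log2 7.77, SE 0.23, adjusted p = 1.4e-18). The membrane anchor Ank3 rose 59.5-fold (log2 5.89, or 6.60 without normal replicate 1), adducin 3 (Add3) 46.5-fold, the phospholipid flippase subunit Tmem30b 31.7-fold and the actin-binding Ppp1r9a 28.1-fold. Txnip, an inhibitor of thioredoxin and of glucose uptake, rose from 7.34 ± 1.89 to 346 ± 38.4 CPM (47.0-fold). Grn, the lysosomal growth factor progranulin, rose 44.5-fold, the hypoxia-responsive Ndrg1 43.3-fold, and the adherens junction protein Cdh1 27.7-fold.

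At the other end, Pou5f1 was almost absent from serum-free vesicles. It had 102, 119 and 133 CPM in normal cells and 0, 0.607 and 1.63 CPM in serum-free vesicles (136-fold lower, log2 -7.09, SE 0.30, adjusted p = 7.5e-15; log2 -8.26 without serum-free replicate 3). Fgf10, a growth factor that signals through Fgfr2, fell 39.3-fold, from 125 ± 12.6 to 2.95 ± 2.10 CPM. Arhgap9, a GTPase-activating protein, fell 47.5-fold and Ubash3b, a phosphatase that dampens receptor signalling, 47.0-fold. Tfec, a factor of the MiT family, fell 31.9-fold, and the cell cycle inhibitor Cdkn1c 22.5-fold, from 114 ± 15.5 to 4.75 ± 3.22 CPM. In Tfec the second serum-free library held most of what was left (0.753, 4.25 and 0.466 CPM), and without it the log2 fold change was -6.70 in place of -5.00. The calcium sensor Ncs1, the procollagen enhancer PCOLCE2, the interferon-induced Ifitm1, the small heat shock protein Hspb8 and the endocytic co-receptor Amn fell 23.1- to 27.7-fold. Without serum-free replicate 3 the log2 fold change of Fgf10 was -5.94 in place of -5.30, and that of Ifitm1 -5.50 in place of -4.58. For all 24 genes of this rule the libraries of the groups did not overlap, as the rule requires, and 62.5% of all tested genes did not overlap either.

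**Figure D3:**
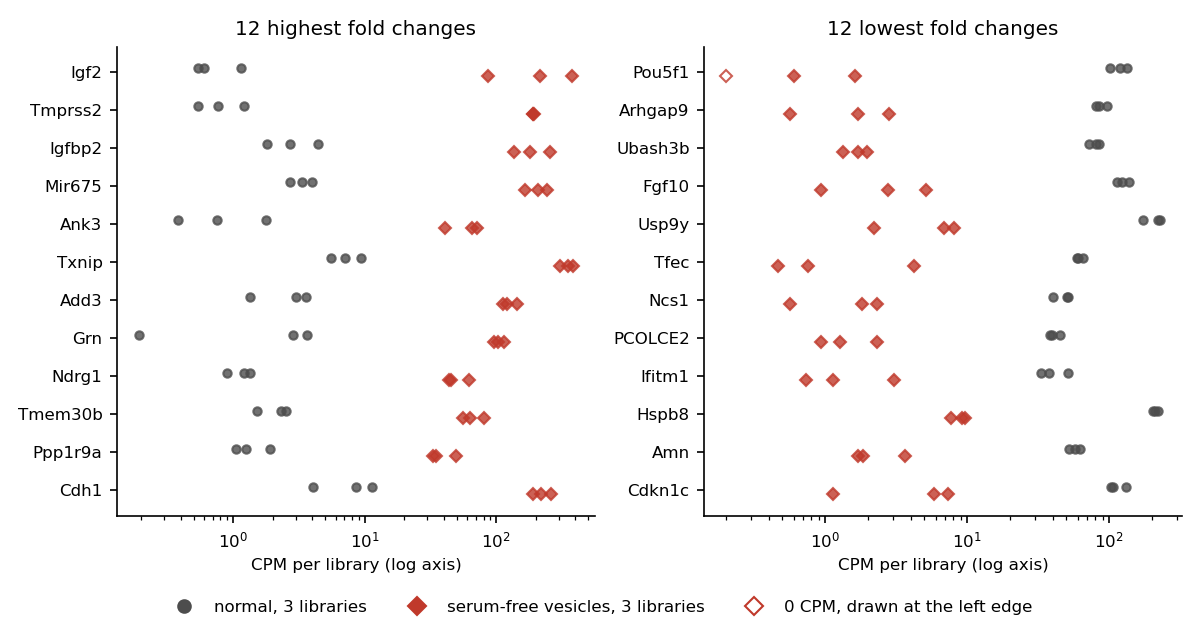
CPM in each library (log axis) for the 12 highest (left) and 12 lowest (right) genes of the naming rule, with normal cells as grey circles and serum-free vesicles as red diamonds; an open diamond marks 0 CPM. Tmprss2 lies within 189 to 194 CPM in serum-free vesicles, while Igf2 spreads from 87.1 to 379.5 CPM.

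Usp9y, among the 12 lowest, carries the name of a Y-linked deubiquitinase although the cells were labelled female. It had 223, 175 and 229.8 CPM in normal cells and 8.10, 6.92 and 2.21 CPM in serum-free vesicles, a 37.9-fold difference. Other Y-named genes differed from one another. Eif2s3y was at 120 ± 10.1 and 116 ± 8.33 CPM (adjusted p = 0.811), and the histone demethylase Kdm5d rose 2.65-fold, from 13.8 ± 3.14 to 36.8 ± 3.17 CPM. Ddx3y, which had too few counts to be tested, had 10 counts over the normal libraries and 1 over the serum-free libraries, the same direction as Usp9y, and Sry had 0 and 1. Whether reads from near-identical X-linked copies were counted at these rows was not tested.

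The identity genes of extraembryonic endoderm did not move as a group. Gata6 fell 5.04-fold, from 75.6, 82.7 and 82.0 CPM to 15.4, 13.2 and 18.9 CPM, and Gata4 fell 2.20-fold to 186 ± 44.1 CPM. Sox17 stayed high, at 519 ± 81.3 CPM in normal cells and 394 ± 42.0 CPM in serum-free vesicles (log2 -0.40, adjusted p = 0.0325), and the call ended without serum-free replicate 2 (adjusted p = 0.122), without serum-free replicate 1, or without normal replicate 2 or 3. The low-level Sox7 was at 3.82 ± 1.08 and 5.11 ± 1.32 CPM (adjusted p = 0.230). The receptor Pdgfra rose 1.49-fold to 293 ± 61.2 CPM. Gata2, a zinc-finger factor known from trophoblast and blood, rose 123-fold, with 0.538, 0.576 and 0.303 CPM in normal cells and 69.5, 59.6 and 47.5 CPM in serum-free vesicles. Hnf4a, the factor that directs visceral endoderm and liver genes, rose 7.63-fold to 64.1 ± 12 CPM, Cited1 12.8-fold, Nr2f2 4.05-fold and Foxa2 1.83-fold. Eomes, a T-box factor, fell 8.49-fold to 0.969 ± 0.212 CPM. Over the list of endoderm transcription factors, 7 of 18 tested members were higher and 6 lower, with a median of 0.40, beside 30.2% and 27.5% over all genes.

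Pluripotency factors were mostly lower. Of 13 tested members, 9 fell and 1 rose, with a median log2 fold change of -0.98. Beside Pou5f1, the RNA-binding repressors of let-7, Lin28a and Lin28b, fell 8.17- and 16.7-fold. Lin28a had 207, 200.3 and 209 CPM in normal cells and 27.5, 22.8 and 25.4 CPM in serum-free vesicles. The Nodal co-receptor Tdgf1 fell 7.04-fold from a low level, and Sall4 fell 1.97-fold. Klf4 was the member that rose, 1.87-fold to 58.6 ± 14.2 CPM. Nanog, Sox2, Dppa3, Fgf4 and Prdm14 had 0 counts in both groups. The de novo DNA methyltransferases fell as well: Dnmt3a 9.97-fold, Dnmt3b 9.01-fold and their cofactor Dnmt3l 84.8-fold, from 58.4 ± 14.3 to 0.618 ± 0.372 CPM. The maintenance methyltransferase Dnmt1 rose 1.57-fold and its partner Uhrf1 2.69-fold, so that the enzymes for setting and for copying methyl marks moved in opposite directions.

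Markers of the visceral and parietal derivatives were split. In the visceral endoderm list, 8 of 16 tested members were higher and 2 lower (median 1.72), but without serum-free replicate 2 the count was 5 higher and 3 lower. Apoe, a lipid carrier, rose 2.69-fold, from 1161 ± 78.4 to 3126 ± 489.7 CPM, and the hedgehog ligand Ihh 4.29-fold. Lrp2, the giant endocytic receptor megalin, rose 6.23-fold but with 457, 189 and 104 CPM across the serum-free libraries (log2 2.64, or 1.87 without the first). Cubn and Amn, which together form the cubam receptor that works with megalin in uptake, fell 10.5- and 23.1-fold. Cubn had 394, 255 and 383 CPM in normal cells and 29.6, 42.0 and 26.7 CPM in serum-free vesicles. Of the defining secreted products, Ttr had 0, 3 and 0 counts in the serum-free libraries, and Afp, Apoa1 and Fgb were above 5 counts only in replicate 2.

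In the parietal endoderm list, 4 of 18 tested members were higher and 8 lower (median -0.42). Thbd, the thrombin receptor thrombomodulin, fell 7.5-fold, from 265, 258 and 268 CPM to 26.7, 38.6 and 39.2 CPM. The intermediate filament Vim fell 5.49-fold to 19.4 ± 7.49 CPM and the retinol transporter Stra6 from 27.8 ± 1.94 to 0.515 ± 0.479 CPM (log2 -5.64, or -6.86 without serum-free replicate 3). Sparc, a matrix protein that parietal cells make in bulk, was at 1181 ± 6.92 and 992 ± 49.5 CPM (adjusted p = 0.0719). The plasminogen activator Plat rose 8.71-fold, with 10.5, 18 and 54 CPM over the serum-free libraries (log2 3.12, or 2.17 without the third), and the activin antagonist Fst rose 15.1-fold to 29.0 ± 1.84 CPM. Of the precursor markers, Gata4, Gata6, Sox17, Foxa2 and Pdgfra were thus present in these vesicles, Sox7 was low in both groups and Pou5f1 was almost absent. Gata4 and Gata6 were both lower than in normal cells, while Foxa2 and Pdgfra were higher. Sox17 was called lower, but not in every alternative. Of the markers of the derivatives, Apoe and Sparc were abundant, while Ttr and Stra6 were at or near 0 in each serum-free library. Ttr had 0 counts in normal cells too.

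**Figure D4:**
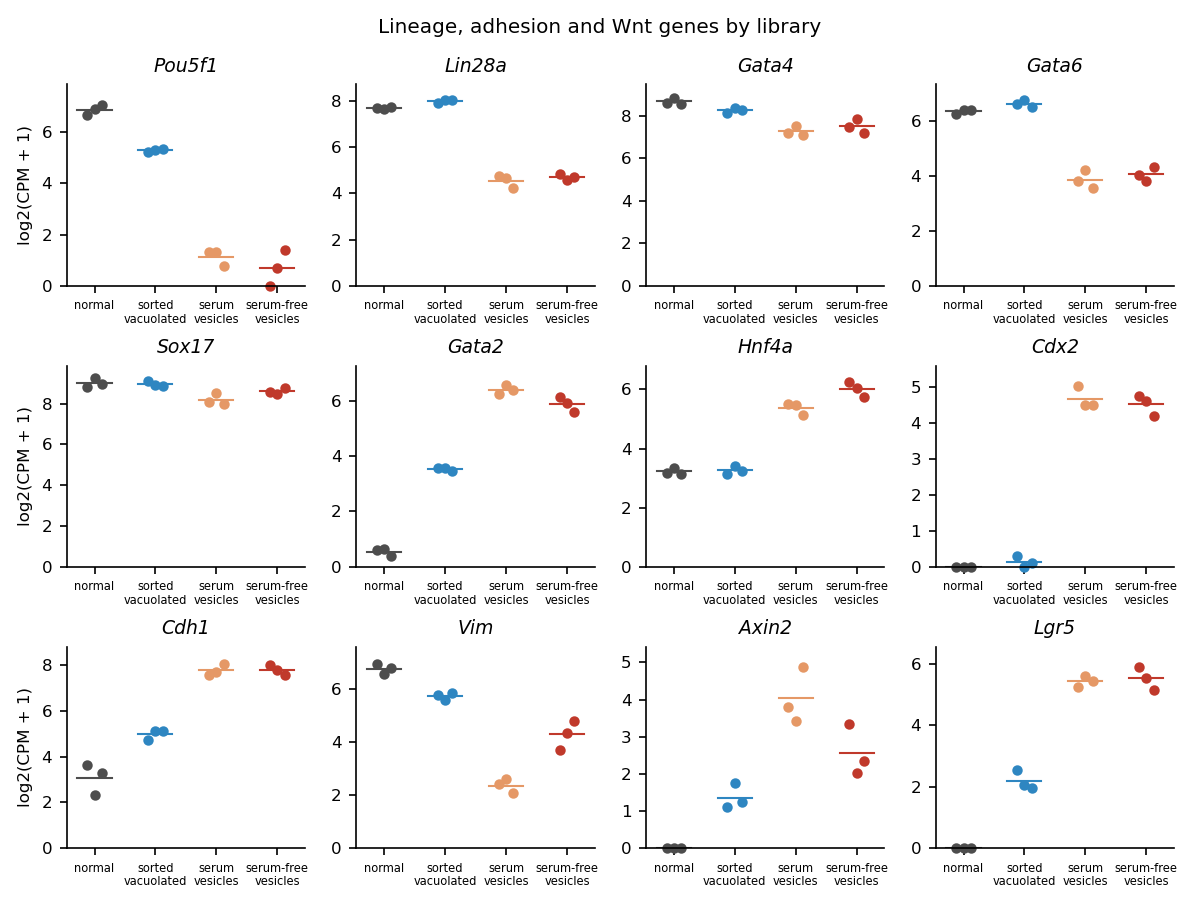
Log2(CPM + 1) of 12 genes of lineage, adhesion and Wnt signalling in normal cells, sorted vacuolated cells, serum vesicles and serum-free vesicles, with 1 point per library and a line at the group mean. Pou5f1, Lin28a and Gata6 are low and Gata2, Hnf4a, Cdx2, Cdh1 and Lgr5 high in both kinds of vesicle, while Vim and Axin2 part the serum-free from the serum vesicles.

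Lists for other cell types were read in the same way. In the list for definitive endoderm and gut, which also holds the shared endoderm factors Sox17 and Foxa2, 5 of 7 tested members were higher and 1, Sox17, was lower (median 3.53). It summed to 477 to 636 CPM in normal cells and 475 to 518 CPM in serum-free vesicles, most of it Sox17. The members that rose were Foxa2, Cdx2, the actin bundler Vil1, the chemokine receptor Cxcr4 (0 counts in normal cells and 8, 51 and 32 in serum-free vesicles, at least 23.8-fold higher) and the urea cycle enzyme Cps1 (11.5-fold, to 6.97 ± 2.94 CPM; log2 3.53, or 5.20 without normal replicate 1 and 2.88 without normal replicate 3). Alb, Sftpc and Tff3 had 0 counts in both groups. The list for mesoderm and primitive streak summed to 63.5 to 70.2 CPM in normal cells and 65.9 to 83.7 CPM in serum-free vesicles, with 1 of 3 tested members higher and 2 lower. The blood and immune list summed to 4.22 to 8.08 CPM in normal cells and 3.49 to 9.11 CPM in serum-free vesicles, with Ptprc, Tyrobp and Hbb at 0 in both. The neural list summed to 214 to 216 CPM in normal cells and 18.8 to 51.4 CPM in serum-free vesicles, with 6 of 7 tested members lower, among them the microtubule regulator Stmn2, which fell 14.4-fold from 176 ± 1.09 CPM (log2 -3.85, or -4.54 without serum-free replicate 3); Pax6, Neurod1 and Gfap had 0 counts in both groups. Of the trophoblast list, 10 of 13 genes had too few counts to be tested; Cdx2 rose, Eomes and Plac1 fell, and Hand1, Gcm1, Prl3b1 and Prl3d1 had 0 counts in both groups. Mesenchymal genes were lower for 7 of 13 tested members and higher for 3 (median -1.56), with 3 lower and 3 higher without serum-free replicate 2. The repressor of epithelial genes Zeb1 had 21 counts over the normal libraries and 2 over the serum-free libraries, a ratio of 13.4 (95% interval 3.27 to 118).

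Genes of epithelial junctions and keratins rose almost throughout. Of 38 tested members, 31 were higher and 0 lower, with a median log2 fold change of 2.13; DESeq2 and every other alternative gave 30 to 33 higher and 0 lower. Cdh1, which joins neighbouring cells, had 11.3, 4.03 and 8.63 CPM in normal cells and 259.7, 219.8 and 191 CPM in serum-free vesicles. Epcam, an epithelial adhesion protein, rose 8.09-fold to 291 ± 9.75 CPM. The groups stood far apart in both. Among tight junction proteins, Cldn6 rose 13.2-fold, Ocln 7.98-fold, Cldn7 24.9-fold and Cldn4 274-fold, from 0.350 ± 0.480 to 99.5 ± 21.6 CPM (log2 8.10, or 9.93 without normal replicate 1). Marveld3 had 0 counts in normal cells and 43, 90 and 78 in serum-free vesicles, at least 55.3-fold higher. The paired keratins Krt8 and Krt18, which were well expressed in normal cells already, rose 7.71- and 7.07-fold to 898 ± 23.4 and 473 ± 20.1 CPM. The epithelial factor Grhl2 rose 14.4-fold.

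Proteins of the apical surface followed. In the list of apical membrane and microvillus genes, 12 of 17 tested members were higher and 2 lower (median 1.14). Podxl, the sialomucin that coats apical membranes, rose 2.20-fold from 229 ± 1.25 to 504 ± 54.9 CPM, and ezrin (Ezr), which ties actin to that membrane, 1.58-fold. The actin regulator Eps8 had 2 counts over the normal libraries and 52, 106 and 47 in serum-free vesicles, a ratio of 80.5 (95% interval 22.0 to 669, counting error only). Villin (Vil1), the actin bundler of microvilli, had 5.27, 35.6 and 2.56 CPM in serum-free vesicles and 2 counts in normal cells in all, and the second library was again the highest. Its log2 fold change was 6.79 with that library and 4.85 without it, and both passed. Membrane serine proteases and their inhibitors were higher for 11 of 17 and lower for 3 (median 1.23). With Tmprss2, prostasin (Prss8) rose 18.5-fold to 73.0 ± 15.9 CPM, its activator matriptase (St14) 2.52-fold and their inhibitor Spint1 2.57-fold. The clotting initiator F3 fell 3.40-fold.

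Transporters that move salt, acid and water across epithelia were among the strongest differences. In that list 16 of 26 tested genes rose and 3 fell (median 1.86). Slc9a3, the sodium-proton exchanger of absorptive surfaces, had 0 counts in all normal libraries and 724, 804 and 980 counts in serum-free vesicles, at least 657-fold higher. The bicarbonate cotransporter Slc4a4 rose 151-fold, from 0.399 ± 0.0494 to 63.4 ± 12.1 CPM, and the cytosolic carbonic anhydrase Car2 122-fold, from 0.445 ± 0.222 to 58.1 ± 11.6 CPM. The sodium pump subunit Atp1b1 rose 4.43-fold and the chloride cotransporter Slc12a2 3.86-fold. Car12, a carbonic anhydrase on the cell surface, moved the other way, from 33.5 ± 9.29 to 0.387 ± 0.167 CPM (87.8-fold lower). The potassium channel Kcnn4 had 12 counts over the normal libraries and 0 over the serum-free libraries, at least 5.09-fold lower.

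Basement membrane genes changed in both directions, with 4 of 16 tested members higher and 7 lower (median -0.49). The nidogens, which link laminin to collagen, fell: Nid2 30.9-fold, and Nid1 79.8-fold (95% interval 26.9 to 390, from 3 counts in serum-free vesicles, all in replicate 3). Col4a1, the most abundant of the list, was at 1439 ± 119.9 and 991 ± 141 CPM (log2 -0.54, adjusted p = 0.0107; 0.0626 without serum-free replicate 2). Of 11 tested integrins, the receptors for these proteins, 5 were higher and 4 lower, beside 30.2% and 27.5% over all genes. The laminin-binding Itgb4 rose 22.4-fold to 13.5 ± 2.78 CPM (log2 4.49, from 3.83 to 5.66 with 1 normal library left out), and the fibronectin-binding Itga5 fell 10.2-fold to 1.45 ± 0.291 CPM.

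Wnt target genes were mostly higher in serum-free vesicles. The part of CHIR99021 in this cannot be told apart from that of the medium and form of growth. Of 27 members with a row in the data, 18 had enough counts to be tested. Of these, 13 were higher and 3 lower (median log2 fold change 2.29). Serum vesicles had 14 higher and 3 lower against normal cells (median 2.47). Members at 0 in normal cells passed the count filter only through groups that expressed them. Untested members had few counts, such as Sp5 and Notum (7 each over the serum-free libraries, 0 over the normal ones), Nkd1 (2 and 0), Dkk4 (0 and 1) and Wif1 (27 and 8). Lgr5, the R-spondin receptor of epithelial stem cells, had 0 counts in the normal libraries and 311, 372 and 295 in the serum-free libraries, at least 256-fold higher. Cdx2, a homeobox factor of trophectoderm and intestine, had 0 counts in normal cells and 137, 194 and 148 in serum-free vesicles, at least 125-fold higher. Axin2, the classic feedback inhibitor of the pathway, had 0 against 48, 25 and 35 counts, at least 28.3-fold higher. For these 3 genes no normal library had a single count, and each serum-free library had at least 25. The TCF-family factor Lef1 was at 7, 9 and 5 counts against 0, at least 5.5-fold higher, and Tcf7 rose 23.7-fold to 8.49 ± 1.17 CPM (log2 4.57, or 5.40 without normal replicate 3). Lgr4, a relative of Lgr5 that was already at 108 ± 5.21 CPM in normal cells, rose 2.94-fold. Some well-known targets went the other way: Myc fell 3.18-fold to 4.25 ± 1.40 CPM and Bambi 3.04-fold. Ccnd1 was at 11.3 ± 2.82 and 5.81 ± 2.48 CPM (adjusted p = 0.0143; 0.103 without serum-free replicate 2, 0.107 with libraries thinned to equal counts and 0.0897 without normal replicate 1).

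The 250 bases before the start of Axin2, Lef1 and Cdx2 are shown because TCF factors bind short sites in such regions, and these genes had no counts in normal cells. The sequences are from RefSeq, build GRCr8, 5′ to 3′ on the strand of the gene, and capitals mark matches to the TCF motif, searched as CAAAG with A or T at both of the bases before it, on both strands.
Axin2 (chr10:94398535-94398784, plus strand): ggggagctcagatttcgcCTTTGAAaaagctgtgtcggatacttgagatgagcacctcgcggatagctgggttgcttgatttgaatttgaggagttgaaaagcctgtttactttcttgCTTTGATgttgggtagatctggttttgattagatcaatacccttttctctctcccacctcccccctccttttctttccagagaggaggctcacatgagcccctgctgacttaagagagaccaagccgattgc
Lef1 (chr2:222340463-222340712, plus strand): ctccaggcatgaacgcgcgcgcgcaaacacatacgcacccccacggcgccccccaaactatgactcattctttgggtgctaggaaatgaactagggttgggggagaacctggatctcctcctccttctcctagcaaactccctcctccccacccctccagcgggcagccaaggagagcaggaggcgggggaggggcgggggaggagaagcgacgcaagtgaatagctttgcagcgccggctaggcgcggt
Cdx2 (chr12:12762654-12762903, plus strand): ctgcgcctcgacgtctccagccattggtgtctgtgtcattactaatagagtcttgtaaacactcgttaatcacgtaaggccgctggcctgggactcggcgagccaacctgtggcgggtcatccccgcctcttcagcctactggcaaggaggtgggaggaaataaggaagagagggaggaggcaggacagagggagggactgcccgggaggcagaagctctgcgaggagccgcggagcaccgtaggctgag
The Axin2 window held 2 matches, both read on the opposite strand, and the other 2 windows held 0. Over all 33465 windows of the same length, 14.9% held at least 1 match and 1.73% at least 2. Of the 13 higher Wnt genes, 9 had a window and 3 of these held a match. A match is a string of letters and not a measured binding site, and regions further away were not searched.

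The list of FGF and other receptor tyrosine kinases, with their ligands and feedback genes of ERK, changed in both directions. Of 20 tested members, 11 were lower and 6 higher (median -0.90), and the share of higher members was close to the 30.2% over all genes. The receptor Fgfr3 fell 15.7-fold, from 50.2, 72.9 and 55.7 CPM to 4.52, 3.40 and 3.61 CPM, and Fgfr2, the receptor for Fgf10, 8.03-fold (log2 -3.01, or -3.68 without serum-free replicate 3). Among the members known as targets or feedback inhibitors of ERK signalling, the phosphatase Dusp4 fell 12-fold (log2 -3.59, or -4.66 without serum-free replicate 2), the transcription factor Etv5 6.21-fold, and the inhibitors Spry2 2.26-fold and Spry4 2.12-fold. Spred1 was at 8.38 ± 1.86 and 5.03 ± 1.90 CPM (adjusted p = 0.0217, and 0.154 without serum-free replicate 3; 5 other alternatives also ended its call). The phosphatase Dusp6 was at 8.21 ± 1.38 and 7.06 ± 4.36 CPM (adjusted p = 0.735) and Spry1 at 9.69 ± 0.791 and 10.9 ± 3.30 CPM (adjusted p = 0.519). Fos and Egr1, which ERK also induces, rose and are described with the immediate early genes. Etv4 had 25 counts over the normal libraries and 1 over the serum-free libraries, a ratio of 31.8 (95% interval 5.21 to 1306). Receptors of other families rose, with Kit 7.37-fold, from 37.4 ± 0.748 to 276 ± 14.8 CPM, and Erbb3 10.7-fold to 27.4 ± 5.60 CPM.

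LIF was in the medium of the vesicles, and the receptor subunit that binds it was lower. Lifr fell 6.79-fold, from 362, 339.8 and 379 CPM to 41.8, 47.7 and 68.8 CPM, while its partner Il6st rose 1.79-fold and the factor Stat3 was at 225 ± 16 and 208 ± 23.2 CPM (adjusted p = 0.368). Socs3, the feedback target of this pathway, was at 32.2 ± 2.00 and 23.1 ± 8.22 CPM (log2 -0.50, adjusted p = 0.0276; 0.182 without serum-free replicate 3), and the call also ended without serum-free replicate 2 or normal replicate 2, with the 2 groups fitted alone and with thinned counts. Of 16 tested LIF and STAT3 genes, 3 were higher and 5 lower. In the BMP list 11 of 21 were higher and 4 lower (median 0.66). The ligand Bmp4 rose 99.3-fold, from 0.471 ± 0.480 to 47.7 ± 18.3 CPM (log2 6.63, or 7.49 without normal replicate 2), its modulator Bmper fell 32.0-fold, and the targets Id2 and Id1 moved apart, with Id2 9.17-fold higher and Id1 2.24-fold lower. In the Hippo list, 5 of 19 were higher and 9 lower (median -0.54): the target Ankrd1 fell 15.9-fold (log2 -3.99, or -4.64 without serum-free replicate 3), Ctgf 2.70-fold, the factor Tead4 5.02-fold and the co-activator Yap1 1.5-fold.

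The imprinted growth genes, whose products set the size of the embryo and its membranes, held some of the strongest differences. Of 11 tested members, 7 were higher and 3 lower (median 1.54). Beside Igf2, its clearance receptor Igf2r rose 21.9-fold to 123 ± 19.9 CPM, although the spread across all groups was wide (SE 0.73 on the log2 scale). Sgce rose 10.3-fold and Mest 2.91-fold. Grb10, an inhibitor of insulin signalling, rose 15.1-fold but lay at 83.4, 37.8 and 5.71 CPM in the serum-free libraries (log2 3.92, or 2.98 without the first). The growth inhibitors Cdkn1c and Phlda2, which share an imprinted cluster, fell 22.5- and 21.8-fold. Phlda2 was at 62.1, 62.9 and 63.1 CPM in normal cells and at 1.51, 5.10 and 1.63 CPM in serum-free vesicles (log2 -4.45, or -5.30 without the second).

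Mir675 lies within the first exon of H19, the non-coding RNA of the Igf2 cluster, and its hairpin is shown because that row was among the 12 highest. The sequences are from RefSeq, build GRCr8, minus strand, 5′ to 3′, with the seed (bases 2 to 8) of each mature arm in capitals.
Mir675 hairpin (chr1:207161752-207161835): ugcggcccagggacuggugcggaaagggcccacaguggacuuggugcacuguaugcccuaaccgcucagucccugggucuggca
rno-miR-675-5p (chr1:207161800-207161821): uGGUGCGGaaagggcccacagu
rno-miR-675-3p (chr1:207161766-207161786): uGUAUGCCcuaaccgcucagu
The row had 22, 14 and 22 counts in normal cells and 883, 1724 and 2092 in serum-free vesicles, or 3.32 ± 0.631 and 206 ± 38.8 CPM (61.7-fold, log2 5.95, SE 0.22, adjusted p = 1.38e-16). These libraries were made from total RNA, so reads of the host transcript that cover the hairpin cannot be told apart from the hairpin, and no mature miRNA was measured. H19 itself was not analysed here.

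Among glycolytic and hypoxia-responsive genes, 16 of 33 tested members rose and 6 fell (median 0.45). Aldolase A (Aldoa), a glycolytic enzyme, rose 7.23-fold, from 73.2, 55.6 and 62.4 CPM to 471, 507 and 405 CPM. Hexokinase 1 (Hk1) rose 5.98-fold and the angiogenic factor Vegfa 4.64-fold. Hexokinase 2 (Hk2) was at 18.5 ± 5.59 and 7.81 ± 4.11 CPM (adjusted p = 0.0315, and 0.126 without serum-free replicate 3), and 5 other alternatives also ended its call. Nuclear genes of oxidative phosphorylation rose in 9 of 34 cases and fell in 5, while 20 were not called (median 0.14). The coactivator of mitochondrial biogenesis Ppargc1a had 0 counts in normal cells and 67, 84 and 72 in serum-free vesicles, at least 58.4-fold higher. Of the 13 mitochondrially encoded genes 12 were higher and 0 lower (median 1.72). Against serum vesicles 0 of them were higher and against sorted vacuolated cells 3, with 0 lower in both, so the rise was shared with those groups. In cholesterol synthesis and uptake 10 of 25 were higher and 5 lower (median 0.26). The synthase Hmgcs1, which acts early in the pathway, rose 1.77-fold from 61.6 ± 3.89 to 109 ± 13.6 CPM, and the sterol carrier Stard4 fell 2.46-fold.

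Lysosomal genes leaned upward, with 23 of 40 tested members higher and 7 lower (median 0.70). The protease cathepsin B (Ctsb) had 13.8, 13.2 and 18 CPM in normal cells and 385, 457 and 349.5 CPM in serum-free vesicles (26.2-fold, log2 4.71, SE 0.16, adjusted p = 5.15e-17). The hydrolases Glb1 and Tpp1 rose 8.59- and 4.76-fold. The most abundant member, cathepsin L (Ctsl), fell 2.05-fold from 1268 ± 27 to 619.8 ± 101 CPM, and the membrane protein Lamp1 fell 1.42-fold. Subunits of the V-ATPase, the pump that acidifies lysosomes, did not share this rise: 3 of 16 were higher and 6 lower (median -0.23). In the endocytosis list 17 of 40 were higher and 12 lower (median 0.10). Caveolin 1 (Cav1), the coat protein of caveolae, rose 105-fold, from 0.597 ± 0.437 CPM to 27.9, 64.8 and 109 CPM (log2 6.71, or 7.45 without normal replicate 3).

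Genes of growth and division were lower. Of 27 tested genes of ribosome biogenesis and MYC, 23 were lower and 1 higher (median -1.27). The helicase Ddx21 fell 4.46-fold, from 398, 419 and 415 CPM to 94.9, 95.2 and 86.0 CPM, and the processing factor Bop1 4.76-fold to 21.5 ± 0.433 CPM. Nucleolin (Ncl) fell 4.35-fold. Cytosolic ribosomal proteins went the other way by a small amount, with 23 of 53 higher and 4 lower (median 0.25). Proteasome subunits were lower for 27 of 30 tested members and higher for 0 (median -0.92); the other alternatives gave 25 to 29 lower and 0 higher. Psmd1 fell 2.74-fold and Psmc5 2.95-fold.

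In the list for DNA replication and entry into S phase, 21 of 35 were lower and 3 higher (median -0.59). Cyclin E1 (Ccne1), which starts S phase, fell 7.41-fold, from 67.5 ± 3.50 to 9.10 ± 0.310 CPM. Mitotic genes were lower for 26 of 39 and higher for 2 (median -0.76), with the checkpoint kinase Bub1 2.69-fold and the factor Mybl2 2.52-fold lower. The decline was modest for most members and not shared by all: Top2a, which untangles DNA, rose 1.81-fold, and the proliferation marker Mki67 was at 75.2 ± 12.6 and 57.5 ± 11.9 CPM (adjusted p = 0.107). Cell cycle inhibitors and p53 targets were mixed, with 7 of 23 higher and 8 lower (median -0.1), beside 30.2% and 27.5% over all genes. Their log2 fold changes ran from -4.49 to 3.36. Cdkn1a fell 3.01-fold and Mdm2 2.02-fold, while other members rose. Chaperones of the endoplasmic reticulum were lower for 16 of 23 and higher for 3 (median -0.80). Hspa5, the main one, fell 2.36-fold, from 1363 ± 27.5 to 578 ± 78.6 CPM, Sdf2l1 8.07-fold and Creld2 6.51-fold, whereas the stress factor Xbp1 rose 2.03-fold. Immediate early genes, which respond within minutes to handling or to a signal, were higher for 11 of 17 and lower for 3 (median 1.17). Fos rose 7.08-fold to 4.95 ± 1.92 CPM, and Egr1 rose 13.4-fold with 0.941, 11.4 and 6.17 CPM over the serum-free libraries (log2 3.74, or 2.98 without the second). The part of handling in these values was not tested.

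**Figure D5:**
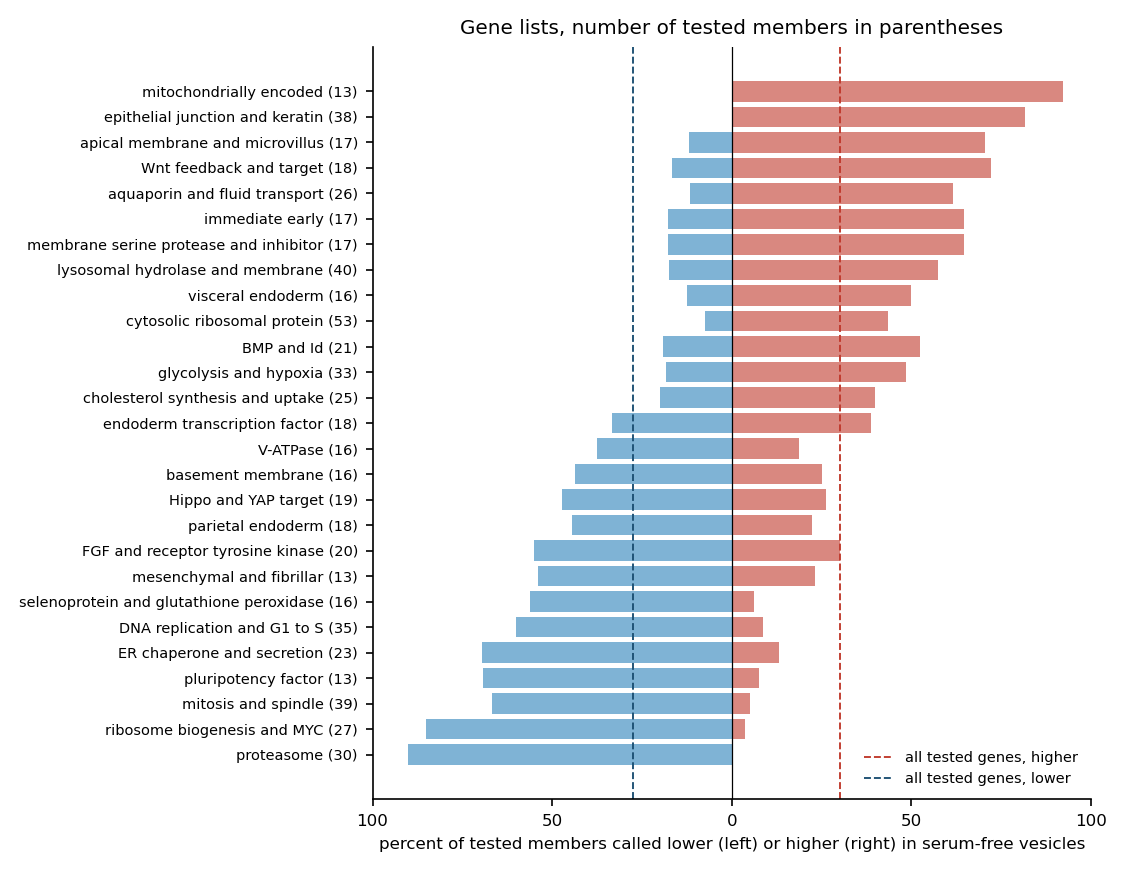
Share of tested members called higher (right) or lower (left) in serum-free vesicles than in normal cells for 27 gene lists, with the number of tested members in parentheses and dashed lines at the shares over all 11503 genes (30.2% higher, 27.5% lower). Epithelial junction, apical, Wnt and fluid transport genes lie to the right, and proteasome, ribosome biogenesis, mitosis and pluripotency genes to the left.

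Both kinds of vesicle were compared directly, to see where they differed. Against serum vesicles, 1482 genes were higher in serum-free vesicles (12.9%) and 1324 lower (11.5%), together 24.4% of those tested, with a median of 0.02. With the 2 groups fitted alone the count was 1223 in place of 2806, and without serum vesicle replicate 3 it was 1725. Of 53 tested genes of cytosolic ribosomal proteins, 52 were higher and 0 lower (median 0.82). Genes of cholesterol synthesis and uptake were higher for 12 of 25 and lower for 0 (median 0.40). Of the nuclear oxidative phosphorylation genes, 13 of 34 were higher and 1 lower. In the other direction, none of 9 tested glucocorticoid targets was higher and 6 were lower (median -1.50), with the chaperone Fkbp5 at -1.95, and 0 of 23 cell cycle inhibitors and p53 targets were higher and 9 lower, with Cdkn1a at -2.0 and Mdm2 at -0.96. NRF2 targets, the genes of the antioxidant response, were higher for 0 of 22 and lower for 8. Serum vesicles themselves differed from normal cells in these lists. They had 2 ribosomal protein genes higher and 39 lower (median -0.58), and 5 nuclear oxidative phosphorylation genes higher and 17 lower. For cholesterol genes the counts were 6 higher and 8 lower, and for glucocorticoid targets 7 and 1 (median 2.49). For cell cycle inhibitors and p53 targets they were 11 and 4, and for NRF2 targets 12 and 3.

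Ceacam1, an adhesion protein of epithelia, was the highest gene of this comparison by the naming rule, at 24.7, 50.3 and 46.6 CPM in serum-free and 3.59 CPM on average in serum vesicles (log2 3.43, adjusted p = 1.33e-06). It was followed by the linker histone Hist1h1a (2.81), the phospholipase receptor Pla2r1 (2.65), the cytoskeletal Pgm5 (2.46), the steroid dehydrogenase Akr1c14 (2.42) and the transporter-like Slc26a10 (2.41). Akr1c14 was at 41.2 CPM in the first serum-free library and at 156 and 171 CPM in the other 2. The lowest was Usp9y (-3.93), then the heat shock protein Hsph1 (-2.65), the apoptosis-inducing factor family member Aifm3 (-2.59), the ephrin Efnb1 (-2.43), the adhesion protein Igsf11 (-2.40) and the imprinted Peg3 (-2.40). Efnb1 was at 37.7 ± 15.4 CPM in serum-free and 205 ± 24.9 CPM in serum vesicles, with 28.3 ± 6.74 CPM in normal cells. Vim, which was low in both vesicles, was higher in the serum-free ones by 2.21 (19.4 ± 7.49 against 4.17 ± 0.895 CPM), and Sparc by 0.81. Axin2 was lower in serum-free vesicles by 1.68 (adjusted p = 0.00859). The de novo methyltransferase Dnmt3a was lower by 1.91, while Dnmt3b (0.28, adjusted p = 0.445), Pou5f1 (-0.63, 0.403), Gata4 (0.26, 0.211) and Cdh1 (0.03, 0.923) missed the threshold. The titles of both groups name CHIR99021, but their doses may not match, so serum, dose and medium cannot be told apart.

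Against sorted vacuolated cells, 25.1% of tested genes were higher in serum-free vesicles (2891) and 24.5% lower (2816), together 49.6%. Of the epithelial junction and keratin genes, 29 of 38 were higher and 0 lower (median 1.19), and of the Wnt genes 11 of 18 were higher and 0 lower (median 1.44). Cdh1 was at 31.1 CPM on average in the sorted cells, Lgr5 at 3.60, Gata2 at 10.6 and Pou5f1 at 38.2, each between the levels of normal cells and serum-free vesicles. Mitotic genes were lower for 32 of 39 and higher for 0, ribosome biogenesis genes for 21 of 27 and higher for 0, and basement membrane genes for 13 of 16 and higher for 2. Gata6 (97.7 CPM), Lin28a (251 CPM) and Cubn (192 CPM) stood in the sorted cells well above their levels in serum-free vesicles.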

How the data were processed

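Total RNA was depleted of rRNA and sequenced as strand-specific libraries. Per the submitters' processing notes, reads were trimmed with Trimmomatic 0.38 and aligned with STAR 2.6.1 to rn6. The deposited files hold raw counts of reads per gene symbol, and the tool and annotation used to count are not given in the sources used here. Column 4, one of the stranded counts, was used. Genes were tested with edgeR 4.0.16 (quasi-likelihood, TMM, Benjamini-Hochberg) in 1 fit over all 18 libraries, with the filter by group at a minimum count of 10. This left 12 residual degrees of freedom. For a group at 0 counts, the fold was a bound, computed as if the group held 3 counts. Such bounds and the 95% intervals cover counting error only.

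Named genes were the 12 highest and 12 lowest (6 and 6 against serum vesicles) that passed, did not overlap between groups and reached 3 in mean log2 CPM, leaving out placeholder symbols. A fixed set and members of each list as examples were added. The members, lists and rules were chosen with earlier results of these data known. On simulated data of 11133 genes, the test called 40% of those with a true 1.5-fold difference, 88% at 2-fold and 100% at 4-fold. The simulation changed 50 genes at each fold, all above a minimum level, and left 10933 unchanged. Apart from these changes the groups shared 1 mean per gene, and the spread followed expression level only. The real data had far more called genes and many near 0 CPM, so these rates need not hold for them. Replicates of a group differed beyond sampling noise (chi-square per degree of freedom of at least 3.04). Alternatives were DESeq2 1.42.0, its size factors, no filter, the 2 groups alone, thinned or unstranded counts, leaving out abundant or mitochondrial genes, passage, a replicate block and leaving out each library.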

Additional observations from a re-analysis of the deposited data

Results flagged for a closer look

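The 12 highest and 12 lowest genes against normal cells and the fixed set of named genes were tested for the direct difference between serum-free and serum vesicles in the edgeR fit, and 17 of them differed. Afp, Ttr and Apoa1 of the fixed set had too few counts to be tested. Over all tested genes, 24.4% differed in this comparison. The highest and lowest genes had been picked by their serum-free values, which enter this comparison too. Values are log2, serum-free minus serum vesicles. Among genes that were higher than in normal cells, Txnip was higher in serum-free vesicles by 1.7, Tmem30b by 1.32 and Hnf4a by 0.64, while Ank3 differed by -1.3, Axin2 by -1.68, Gata2 by -0.5 and Tmprss2 by -0.44. Among genes that were lower than in normal cells, Fgf10 was less reduced in serum-free vesicles, with a difference of 3.2, as was Vim with 2.21 and Thbd with 0.4. Usp9y (-3.93), Amn (-1.79), Hspb8 (-1.52), Arhgap9 (-1.46), Ncs1 (-1.14) and Ubash3b (-1.02) were lower still in serum-free vesicles. Sparc differed by 0.81.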

How the results depend on the processing

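Against normal cells, the number of called genes stayed within 5859 to 6873 over all alternatives, 3422 higher and 3133 lower with the replicate block. Same-numbered libraries of the 2 groups did not deviate together (r of 0.0471, 0.0058 and -0.0179 across genes), so the numbers do not pair them. Among 170 called genes named in the text, 159 kept direction and call in every alternative, 11 lost the call in at least 1 (Sox17, Socs3, Ccnd1, Hk2, Col4a1, Lgals4, Lypd8, C3, Spred1, and against normal cells Aifm3 and Pla2r1) and 0 reversed. The count against serum vesicles was the least stable. With the 2 groups fitted alone it was 1223 in all, 605 higher, 618 lower and 586 over 2-fold, in place of 2806, 1482, 1324 and 913; this fit has fewer samples. Leaving out 1 library gave 1725 to 3004 in all, 943 to 1589 higher and 782 to 1415 lower; serum vesicle replicate 3 gave the lowest of each, and without serum-free replicate 3 the lower genes were 859. The cause was not tested. Against sorted cells the count stayed within 4773 to 5937. Genes below the filter, at depths that left 1919117 counts per library after thinning, were not tested.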

Other observations

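Some groups of genes outside those described above held strong single changes. Mmp15, a membrane-bound matrix metalloprotease, was at 0.459 ± 0.0774 CPM in normal cells and 77.2 ± 19.7 CPM in serum-free vesicles (161-fold higher, adjusted p = 3.6e-14). Of 14 tested members of its list, 5 were higher and 4 lower, near the 30.2% and 27.5% over all genes. Without serum-free replicate 2, 2 were lower. The related Mmp14 was at 1.21 ± 0.791 and 1.36 ± 1.20 CPM (adjusted p = 0.929).

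Of 20 tested amino acid transporters, 7 were higher and 10 lower. Slc38a1, which carries glutamine, fell 4.82-fold from 159 ± 8.49 CPM, and the cystine transporter Slc7a11 had 0 counts in normal cells and 14, 12 and 16 in serum-free vesicles, at least 11-fold higher. Selenoproteins and glutathione peroxidases were lower for 9 of 16 tested members and higher for 1, and without serum-free replicate 2 for 6 and 0. Gpx1 and Gpx4, the main peroxidases, were level, at 99.2 ± 1.15 and 97.6 ± 9.04 CPM for Gpx1 (adjusted p = 0.883) and 85.9 ± 6.79 and 89.6 ± 13.2 CPM for Gpx4 (adjusted p = 0.728). In the list of LXR targets and lipid efflux genes, 5 of 10 rose and 1 fell, with the lipid exporter Abca1 2.36-fold and the ubiquitin ligase Mylip 2.01-fold higher. In the integrated stress response list 5 of 21 were higher and 4 lower, beside 30.2% and 27.5% over all genes. Without serum-free replicate 2, 3 were higher and 7 lower.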
